A study of Mus musculus with 9 samples.

Results

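The comparison set cells labelled Siglec-F high, sorted from lungs seeded with tumour cells, against cells labelled naive, sorted from lungs of mice without tumour cells. It covered every gene with a mean of at least 5 normalized counts over the 6 libraries of both groups, which were 13832 of the 54449 genes in the deposited table, and it compared 6 of the 9 libraries of the series. All mice were C57BL/6. The naive mice (3 libraries) received saline by tail vein and the others (3 libraries) received PyMT tumour cells in 200 µl of saline by the same route, so that tumour cells lodged in the lung. PyMT cells take their name from the polyoma virus middle T antigen. The labels call both groups lung eosinophils, give a Siglec-F level for the cells from metastatic lung, and give no such level, age, sex or time after injection for the naive cells. Each library held RNA pooled from 3 to 4 mice, sorted at a stated purity above 98%, so n = 3 counts pools, and the p-values measure the spread between pools.

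Eosinophils are granulocytes that mature in bone marrow under interleukin 5 and carry toxic basic proteins in their granules. In mice they bear Siglec-F, an inhibitory receptor for sialic acids that alveolar macrophages also carry. Its surface level rises on eosinophils of inflamed airways, and lung eosinophils are therefore often divided into resident cells with intermediate Siglec-F and inflammatory cells with high Siglec-F. Such cells can release cytokines, chemokines and growth factors besides their granules.

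The naive libraries held 2205949 to 5529406 reads and the Siglec-F high libraries 4941900 to 7171066. On log2 values over the tested genes, pairs of naive libraries correlated at 0.837 to 0.915. Siglec-F high libraries 2 and 3 correlated at 0.924, but library 1 correlated with them at only 0.701 and 0.759, and with the naive libraries at 0.454 to 0.509. Siglec-F high libraries 2 and 3 correlated with the naive libraries at 0.692 to 0.790. Library 2 thus correlated better with each naive library (0.730 to 0.790) than with library 1 of its own group. Library 1 also had the largest share of its values in mitochondrial genes (31.1%, against 11.5% to 21.2% in the other 5) and the most tested genes at 0 (1333, against 488 to 1097). It stands apart, and counts are therefore also given without it or as calls that held without it.

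The defining markers of eosinophils were scarce in both groups, and those of pigment cells were abundant in the naive libraries, as the plot of markers by library shows. Siglecf itself stood at 12.6, 31.3 and 4.18 normalized counts in the naive libraries and at 17.6, 3.58 and 14.5 in the Siglec-F high libraries, so the groups overlapped. Ccr3, the eotaxin receptor, was at 0 in all 3 naive libraries and at 24.1, 0 and 5.97 in the Siglec-F high libraries. Prg2, the major basic protein of eosinophil granules, stood at 0, 0 and 15.03 and at 6.58, 0.6 and 379.5, and the last value came from a single library. Epx, eosinophil peroxidase, had 3 reads in the naive and 20 in the Siglec-F high libraries and missed the minimum mean. Ptprc, which encodes CD45 of all leukocytes, stood at 76.8, 396 and 148 and at 1244, 656 and 825, and its log2 fold change of 2.40 was 0.82 and no longer called once trends with GC content and length, described below, were removed. It was not called against a 2-fold change either. Pmel, the protein of melanosome fibrils, stood at 11243, 20329.7 and 14625 in the naive libraries and at 8.77, 43.5 and 69.9 in the Siglec-F high libraries. These levels go against the labelled cell type in both groups, so each direction below is drawn between libraries labelled naive and libraries labelled Siglec-F high.

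**Figure D1:**
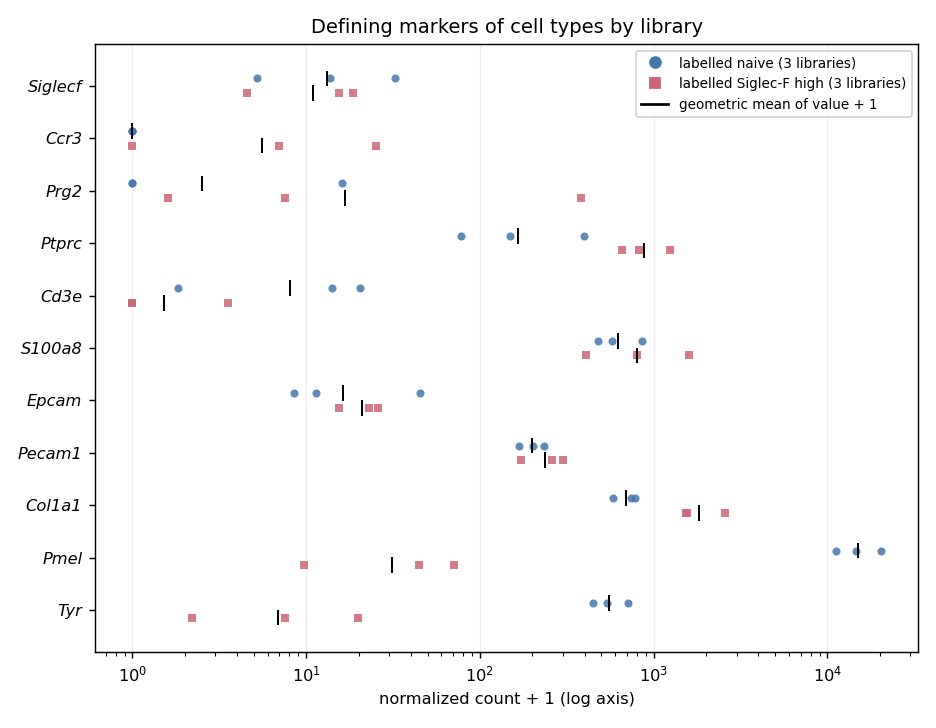
Normalized count + 1 (log axis) of 11 defining markers in each of the 3 libraries labelled naive (circles) and the 3 labelled Siglec-F high (squares), with black ticks at the geometric mean. The groups overlap for the eosinophil markers Siglecf, Ccr3 and Prg2 and lie farthest apart for the pigment cell genes Pmel and Tyr.

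Summed over its listed genes, the eosinophil identity list took 0.0219% to 0.0254% of a naive library's values and 0.122% to 0.201% of a Siglec-F high library's. Most of the latter was Il1rl1, the receptor for interleukin 33, which stood at 40.1, 177 and 66.8 and at 6981, 3195 and 3779, and without it the list took 0.0201% to 0.0239% and 0.0478% to 0.0719%. Of its 11 tested members (16 listed), 5 were called higher and 0 lower, and 2 higher without Siglec-F high library 1. Their median log2 fold change was 1.25, and 1.38 with trends with GC content and length removed. Only Il1rl1 was called higher in every fit that left out 1 of the 6 libraries. Of the 4 tested granule genes (8 listed), limma, edgeR and DESeq2 called 0, and 0 had an unadjusted limma p under 0.05. Collagens, products of fibroblasts, took 0.176% to 0.257% and 0.796% to 0.910%. The lung epithelium list took 0.157% to 0.205% and 0.169% to 0.210%, and the lymphocyte list 0.0862% to 0.121% and 0.0474% to 0.103%. Its defining member Cd3e stood at 19.5, 13.03 and 0.84 and at 0, 0 and 2.56. In pooled RNA, fewer cells of a type and less RNA per cell cannot be told apart.

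Of the 13832 genes, limma called 2000 higher (14.5%) and 2284 lower (16.5%) in the Siglec-F high libraries at an adjusted p under 0.05, and the median log2 fold change of all tested genes was -0.12. Differences are given ± SE as log2 fold changes of value + 1, a scale on which low genes change by less than their ratio. A call is said to have held when each of the 6 fits without 1 library made it in the same direction, and this was so for 1096 genes higher (7.92%) and 1011 lower (7.31%). The main fit and these 6 also contained the libraries labelled Siglec-F int, which shared the estimate of spread. Among called genes, 505 changed at least 16-fold. Without Siglec-F high library 1, 1737 genes were called higher and 2243 lower. Counts in both directions depended on the naive libraries. Fits without naive library 1, 2 or 3 called 1373, 1338 and 1364 genes lower and 1419, 1650 and 1599 higher. Without naive library 1, 2792 genes were called in all. Higher genes made up 46.7% of the calls, but 56.8% (2139 higher, 1628 lower) when libraries were scaled to equal totals and 61.6% (2169 higher, 1354 lower) by edgeR. The median of all genes lay between 0.01 and 0.08 under the other scalings. A test against a change of up to 2-fold called 472 genes higher and 432 lower. With only the 6 libraries compared in the fit, 2500 genes were called (1199 higher, 1301 lower).

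**Figure D2:**
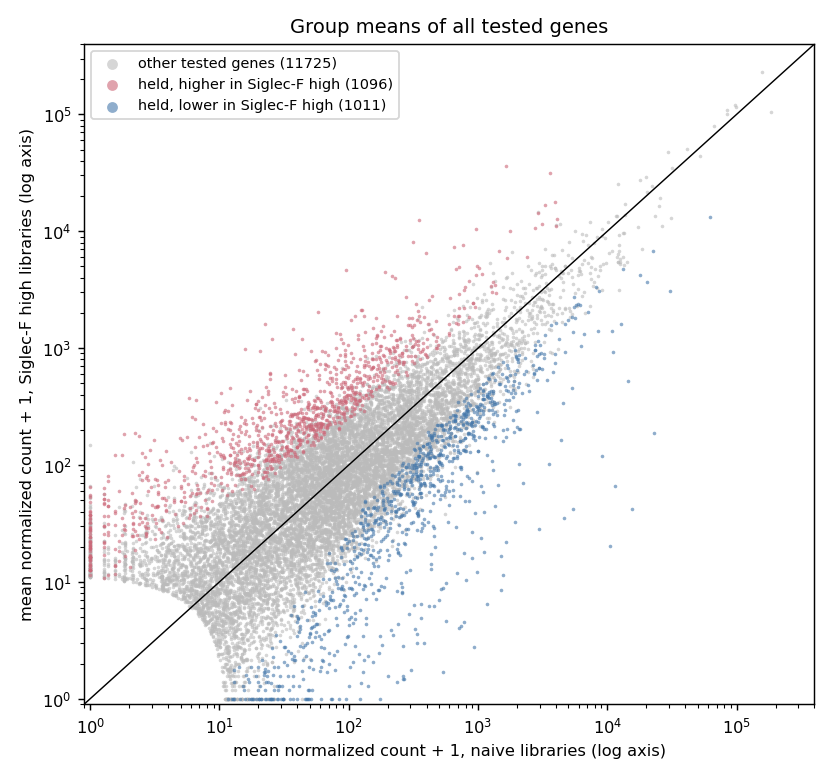
Mean normalized count + 1 of each of the 13832 tested genes in the naive libraries (horizontal, log axis) and the Siglec-F high libraries (vertical, log axis), with the line of equality. The 1096 genes whose higher call held lie above the line and the 1011 whose lower call held lie below it, and the largest gaps at high levels are in genes that were abundant in the naive libraries.

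Called genes were spread unevenly over GC content and length, taken from each gene's longest annotated transcript. In the quintile of genes with the lowest GC content 28.9% were called higher and 2.82% lower, and in the quintile with the highest 4.30% were called higher and 29.6% lower. Among the shortest quintile 6.46% were called higher and 23.8% lower, against 26.8% and 7.09% among the longest. Across the 13829 genes with an annotation, log2 fold change correlated with GC content at r = -0.44 and with log2 length at r = 0.22, where genes are not independent replicates. The part of this trend in the results was not tested as a cause, but its size was measured. Removing it from each library by local regression left 1581 genes called higher and 1553 lower, of which 2236 carried the same call before. For called genes named below, values after this removal are given as trend-removed values where they end a call, turn a sign or move a value by more than 1.5 times. For gene lists the medians after removal are plotted, and for the lists counted below the number called is given where it moved by more than 1.5 times from 4 or more.

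**Figure D3:**
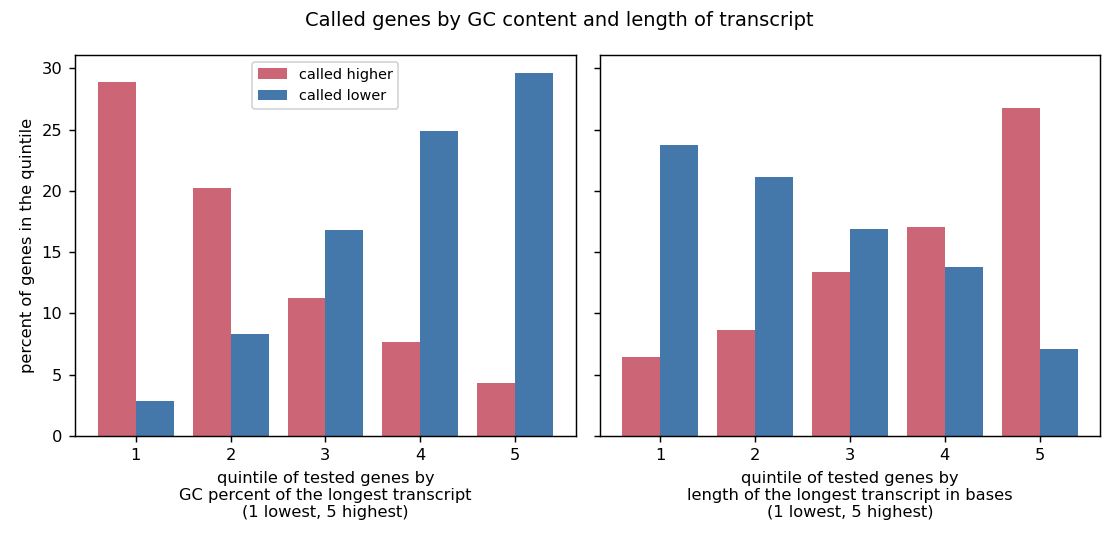
Percent of genes called higher (red) and lower (blue) in the Siglec-F high libraries within quintiles of the tested genes, ordered by GC percent (left) or by length (right) of the longest transcript. The share called higher falls from 28.9% to 4.30% with rising GC content and rises from 6.46% to 26.8% with length.

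Gene lists are described by how many of their tested members had a call that held, and are to be read against the 7.92% and 7.31% of all genes and the median of -0.12. A listed gene that reached the minimum mean through only 1 group had to differ, so these counts are descriptions. Over all 13832 tested genes the groups did not overlap in 2754 that were higher and 3628 that were lower. A lack of overlap, given for single genes below, was therefore common and sets no gene apart. The members of the lists were chosen with earlier results of these data known, and no list was tested as a set. Of the genes named below, the annotated spans of C2, Car14, Cct7, Cdk2, Col10a1, Cp, Cx3cr1, Eng, Ifi203, Masp1, Mrps25, mt-Atp6, Pmel, Runx2 and, in the closing section, Gnas and Psmc3 overlap that of another tested protein-coding gene, and those of Ctsl and Ptprc overlap a tested noncoding or unclassified gene. Whether counting used the strand is not given in the sources used here, so their values are less certain.

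**Figure D4:**
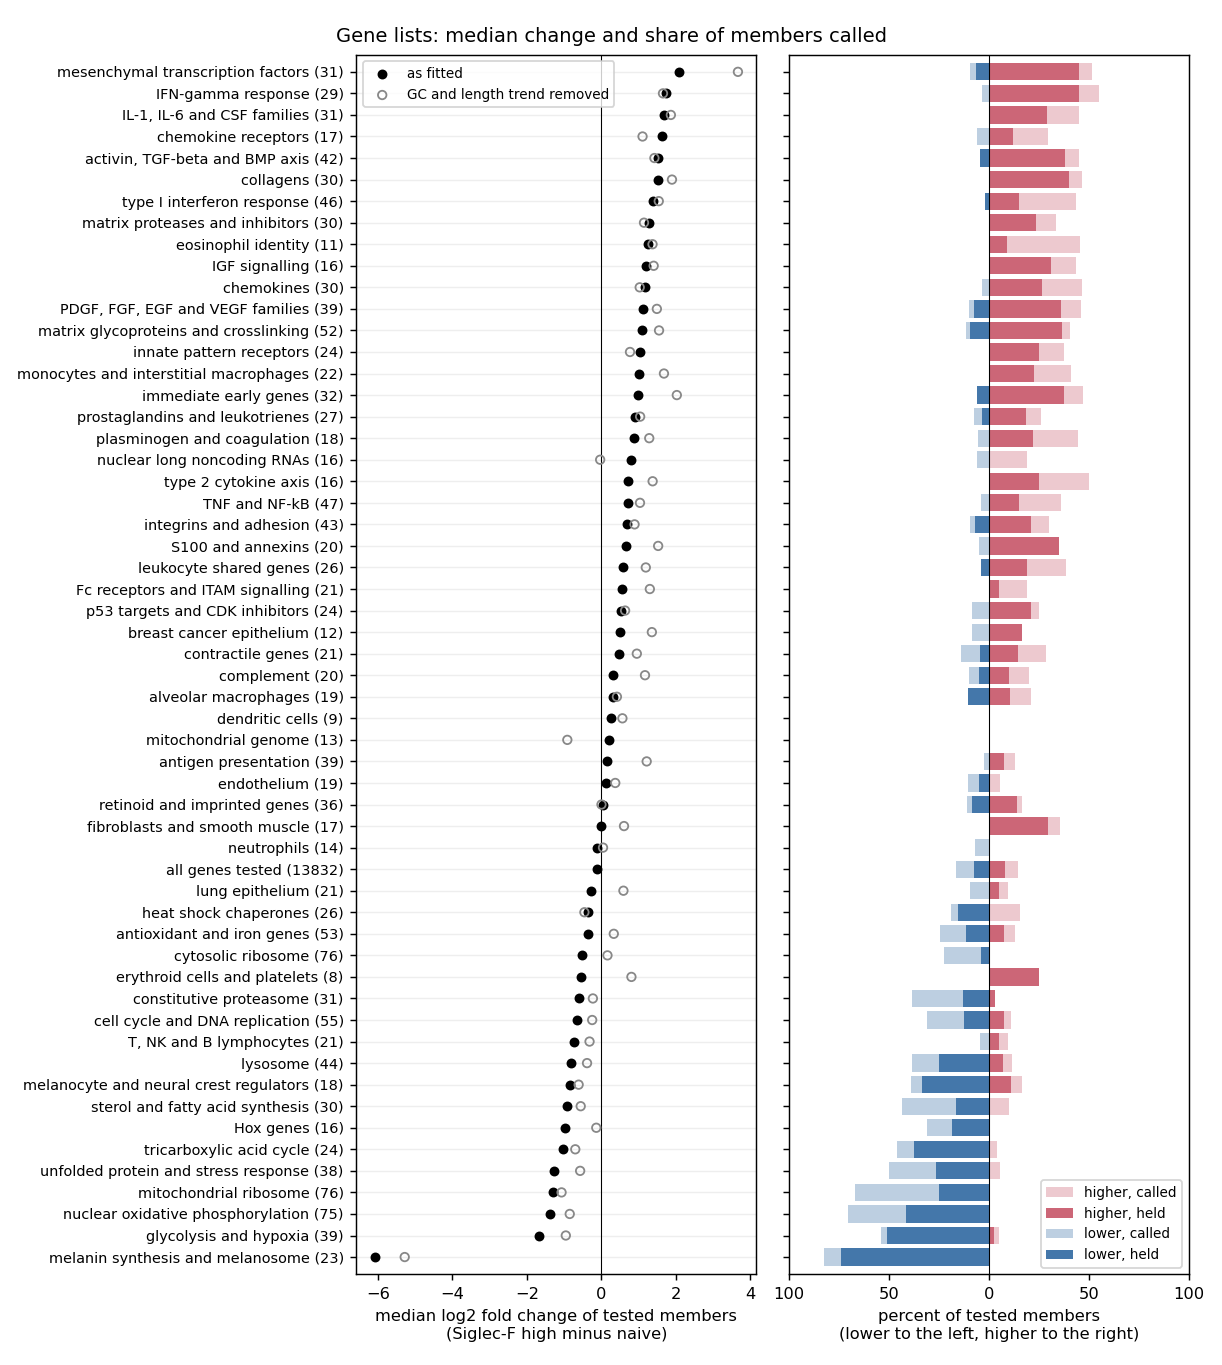
Left, the median log2 fold change (Siglec-F high minus naive) of the tested members of each gene list with at least 8 tested members (number in parentheses), as fitted (filled) and with GC and length trends removed (open). Right, the percent of tested members called (pale) or with a call that held (dark), lower to the left and higher to the right; melanosome, glycolysis and respiratory chain lists lie at the bottom and mesenchymal factors at the top.

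Collagens and other structural genes of the extracellular matrix rose in part between libraries labelled naive and those labelled Siglec-F high, while genes of matrix crosslinking went both ways. Of 30 tested collagen genes (44 listed), 12 rose with calls that held, none fell so, 16 were not called, and the median log2 fold change was 1.52. The network and microfibrillar collagens held most of them, with 8 of 14 tested members. Col6a1 and Col6a3 encode chains of the beaded filaments of type VI collagen. Col6a1 stood at 624, 732 and 760.1 in the naive libraries and at 4564, 5602 and 4781 in the Siglec-F high libraries (log2 fold change 2.82 ± 0.29, adjusted p = 0.00028). Col6a3 stood at 131, 98.99 and 123 and at 1485, 1359.6 and 1000.5 (log2 fold change 3.43 ± 0.32, adjusted p = 0.000217). The groups were far apart for both chains. Col10a1, a network collagen of hypertrophic cartilage, stood at 10.3, 15.6 and 4.18 and at 353, 193 and 156 (log2 fold change 4.48 ± 0.55, adjusted p = 0.000536). Col4a5, a chain of basement membrane, stood at 9.17, 7.82 and 6.68 and at 382, 124 and 112 (log2 fold change 4.31 ± 0.55, adjusted p = 0.000654), and library 1 was the highest of the 3 for both. Col3a1, a fibrillar collagen, was among the more abundant genes at 20431, 14107 and 16096 in the Siglec-F high libraries, against 3528, 2704 and 3719 (log2 fold change 2.34 ± 0.38, adjusted p = 0.00206).

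Among 36 tested matrix glycoproteins and proteoglycans, 17 rose and 3 fell with calls that held. Postn, periostin, a matricellular protein of fibroblasts (ENSMUSG00000027750.16; chromosome 3, 54361109 to 54391037, GRCm38), stood at 19.5, 33.9 and 20.1 in the naive libraries and at 1972, 691 and 903 in the Siglec-F high libraries (log2 fold change 5.44 ± 0.53, adjusted p = 0.000244). Spp1, osteopontin, a secreted adhesion protein of macrophages and bone (ENSMUSG00000029304.14; chromosome 5, 104435118 to 104441050, GRCm38), stood at 167, 565 and 319 and at 22006, 6971 and 8763 (log2 fold change 5.14 ± 0.49, adjusted p = 0.000217). For both genes the lowest Siglec-F high library was above 10 times the highest naive library. In the opposite direction went 2 fibulins, proteins of elastic fibres. Fbln5 stood at 743, 948 and 866 and at 15.4, 61.5 and 67.4 (log2 fold change -4.37 ± 0.59, adjusted p = 0.000835), and Fbln1 at 484, 573 and 505 and at 36.2, 70.4 and 57.1 (log2 fold change -3.28 ± 0.39, adjusted p = 0.000494), again with no overlap. Among 16 tested genes of crosslinking and processing 2 rose (Lox and Bmp1) and 2 fell (Plod1 and P4ha2) with calls that held, 9 were not called and the median was 0.02. The log2 fold change of P4ha2, -1.67, was -0.87 as a trend-removed value and no longer called. For glycoproteins and crosslinking together the number called lower went from 6 to 3 with the trend removed. Of 30 tested matrix proteases and inhibitors (37 listed), 7 rose with calls that held and none fell so. Timp3, an inhibitor of metalloproteinases bound to matrix, stood at 521, 795 and 635 and at 10333, 5141 and 6421 (log2 fold change 3.45 ± 0.42, adjusted p = 0.000549). Among 21 tested contractile genes 3 rose and 1 fell with calls that held, and the list's median of 0.49 turned to -0.06 without naive library 3 and was 0.96 as a trend-removed value. Cald1, caldesmon, which binds actin and myosin, stood at 53.9, 182 and 152 and 2563, 1276 and 1846 (log2 fold change 3.98 ± 0.52, adjusted p = 0.000734).

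Transcription factors of mesenchymal cells rose alongside the matrix genes. Of 31 tested (36 listed) 14 rose and 2 fell with calls that held, and the list's median of 2.09 was 3.68 as a trend-removed value. Sox9, a regulator of cartilage and of progenitor cells (ENSMUSG00000000567.5; chromosome 11, 112782224 to 112787760, GRCm38), stood at 255, 211 and 179 in the naive libraries and at 5440.1, 3021 and 4031 in the Siglec-F high libraries (log2 fold change 4.24 ± 0.38, adjusted p = 0.00015). Runx2, a regulator of bone-forming cells, stood at 10.3, 2.61 and 0.84 and at 247, 113 and 155 (log2 fold change 5.28 ± 0.68, adjusted p = 0.000666). Foxc2, a regulator of mesenchyme and lymphatic vessels, stood at 2.29, 2.61 and 0.84 and at 134, 94.3 and 174 (log2 fold change 5.55 ± 0.61, adjusted p = 0.000348). None of the 3 overlapped between groups, and Runx2 and Foxc2 were at 10.3 or less in the naive libraries. Dlx2, a homeobox gene of branchial arch mesenchyme, had no read in the naive libraries and stood at 48.3, 53.7 and 53.7 in the Siglec-F high libraries, at least 42.8-fold higher against a floor of 3 reads over the naive group. Tfap2b, a factor of neural crest derivatives, had 1 read in the naive libraries and stood at 131, 46.5 and 61.4 in the Siglec-F high libraries, a read ratio of 175 (95% interval from counting, 31.2 to 6956). Gata3, a factor of type 2 lymphocytes and of breast epithelium, stood at 1.15, 0 and 3.34 and at 109, 107 and 160.3 (log2 fold change 5.88 ± 0.69, adjusted p = 0.000442). It was 1 of 2 held rises among the 12 tested genes of the breast cancer epithelium list, in which no fall held. The other was Esr1, with 3 reads in the naive and 170 in the Siglec-F high libraries. Its read ratio was 37.0 (95% interval from counting, 12.4 to 181). The median of that list, 0.52, was 1.36 as a trend-removed value. Its defining member Epcam stood at 10.3, 44.3 and 7.52 and 21.9, 25.1 and 14.5, with the groups overlapping. Tbx2, a T-box repressor that pigment cells express, went the other way, from 382, 445 and 396 to 19.7, 42.4 and 32.4 (log2 fold change -3.71 ± 0.43, adjusted p = 0.000446), and its trend-removed value was -1.98. Alx1, a mesenchymal factor whose fall also held, went from 116, 148 and 74.3 to 0, 0 and 21.3 (log2 fold change -5.28 ± 1.28, adjusted p = 0.0126). Its adjusted p reached 0.0473 in the fits without 1 library.

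Defining markers of fibroblasts rose in part. In the list of 17 tested fibroblast and smooth muscle genes 5 rose and none fell with calls that held, 11 were not called, and log2 fold changes ran from -2.24 to 4.63. The list summed to 0.134% to 0.204% of a naive library's values and to 0.606% to 0.682% of a Siglec-F high library's. Much of the latter was Col3a1, at 20431, 14107 and 16096, where the tested members summed to 25902 to 36946. The share of this list therefore rests largely on a single gene. The list's median of -0.01 was 0.40 without Siglec-F high library 1, 0.61 as a trend-removed value and positive under each of the other scalings. Col1a1, the main chain of type I collagen, stood at 776, 584 and 743 and at 2554, 1555 and 1541 (log2 fold change 1.39 ± 0.34, trend-removed 2.33). It was not called in the test against a 2-fold change. What part cells of this type have in the matrix results was not tested.

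In the TGF-beta superfamily 10 of 18 tested inhibitors and effectors and 4 of 13 tested ligands rose, and none of either fell, with calls that held. The ligands are secreted dimers that signal through receptor kinases and SMAD proteins and are known for driving matrix production. Inhba, which encodes the subunit of activin A, was the ligand with the largest change (6.30). Among inhibitors and effectors, Fstl1, a secreted follistatin-like glycoprotein, stood at 373, 472 and 410.1 in the naive libraries and at 3378, 2027 and 2345 in the Siglec-F high libraries (log2 fold change 2.60 ± 0.39, adjusted p = 0.00149). Tgif1, a homeobox repressor of SMAD-driven transcription, stood at 179, 284 and 207 and at 2274, 1068 and 873 (log2 fold change 2.55 ± 0.37, adjusted p = 0.0012). Smad7, the inhibitory SMAD that the pathway itself induces, stood at 30.97, 13.03 and 22.6 and at 208, 156 and 148 (log2 fold change 2.95 ± 0.42, adjusted p = 0.0011). The groups did not overlap in any of these. Among 11 tested receptors 2 rose and 2 fell with calls that held, and both that fell are receptors known from endothelium. Eng, endoglin, stood at 312, 492 and 353 and at 28.5, 90.1 and 81.9 (log2 fold change -2.65 ± 0.46, trend-removed -1.32). Acvrl1, the receptor ALK1, stood at 307, 539 and 210.5 and at 23.03, 112 and 34.97 (log2 fold change -2.83 ± 0.59, trend-removed -1.61) and was not called against a 2-fold change. Pecam1, the defining marker of endothelium, did not pass the test at 234, 201 and 167 and 172, 259.5 and 299.

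Ligands of other growth factor families rose as well. In the PDGF, FGF, EGF and VEGF families 11 of 22 tested ligands and 3 of 17 tested receptors rose with calls that held, and the difference between these shares was not tested. Over both kinds the number called lower went from 4 to 2 with the trend removed. Pdgfc, a PDGF ligand, had 2 reads in the naive libraries and stood at 53.7, 70.99 and 50.3 in the Siglec-F high libraries, a read ratio of 74.04 (95% interval from counting, 20.3 to 615). Areg, amphiregulin, an EGF receptor ligand of tissue repair, stood at 1.15, 18.2 and 10.02 and at 412, 218 and 217 (log2 fold change 5.14 ± 0.70, adjusted p = 0.000848). Vegfb, a ligand of VEGF receptor 1, fell from 399, 401 and 461 to 4.39, 78.8 and 34.1 (log2 fold change -4.09 ± 0.77, trend-removed -2.21). Among receptors, Fgfr1, which binds fibroblast growth factors, stood at 49.3, 72.9 and 55.96 and at 709.6, 809 and 691 (log2 fold change 3.63 ± 0.35, adjusted p = 0.000227). Erbb3, a receptor for neuregulins found in neural crest derivatives, fell from 81.4, 91.2 and 116 to 10.97, 2.39 and 0.85 (log2 fold change -4.51 ± 0.80, adjusted p = 0.00307). Artn, the GDNF-family ligand artemin, had 2 reads in the naive libraries and stood at 64.7, 119 and 176 in the Siglec-F high libraries, a read ratio of 152 (95% interval from counting, 41.8 to 1256). In insulin-like growth factor signalling 5 of 16 tested genes rose and none fell with calls that held. Igf1r, the receptor for IGF1, stood at 76.8, 75.5 and 65.99 and at 766, 308 and 506 (log2 fold change 2.74 ± 0.44, adjusted p = 0.00196). Igf2bp2, an RNA-binding protein of growing tissue, had 2 reads in the naive libraries and stood at 109.7, 89.5 and 165 in the Siglec-F high libraries, a read ratio of 145 (95% interval from counting, 39.9 to 1199.5).

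Cytokine ligands of the IL-1, IL-6 and colony-stimulating factor families rose in 7 of 14 tested cases, and none fell, with calls that held. Kitl, stem cell factor, the ligand of KIT on mast cells, blood progenitors and melanocytes, stood at 4.59, 33.9 and 7.52 in the naive libraries and at 495, 217 and 373 in the Siglec-F high libraries (log2 fold change 4.86 ± 0.70, adjusted p = 0.00116). Il6, the inflammatory cytokine, stood at 18.4, 23.4 and 10.02 and at 252, 74.6 and 145 (log2 fold change 3.02 ± 0.54, adjusted p = 0.00316). Of 17 tested receptors of these families 2 rose with calls that held. Il18rap, the accessory chain of the interleukin 18 receptor, stood at 17.2, 20.8 and 15.03 and at 230.3, 344 and 339 (log2 fold change 4.02 ± 0.38, adjusted p = 0.000217). None of these 3 genes overlapped between groups. In the type 2 cytokine axis 4 of 16 tested genes rose with calls that held. Il33, the alarmin that acts on the ST2 receptor encoded by Il1rl1, and Il1rl1 were 2 of these, with log2 fold changes of 5.46 and 5.79. Il13ra1, a receptor chain for interleukins 4 and 13, stood at 18.4, 31.3 and 22.6 and at 199.6, 121 and 131 (log2 fold change 2.59 ± 0.40, trend-removed 1.61). Arg1, arginase 1, an enzyme of alternatively activated macrophages, stood at 1047, 1006 and 850.3 and at 5369, 3334 and 3888 (log2 fold change 2.09 ± 0.38, adjusted p = 0.00341) and was not called against a 2-fold change.

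Among 30 tested chemokines (35 listed) 8 rose and none fell with calls that held. Ccl7, which draws monocytes and eosinophils, stood at 61.9, 78.2 and 71.0 in the naive libraries and at 251, 484 and 523 in the Siglec-F high libraries (log2 fold change 2.49 ± 0.34, adjusted p = 0.000841). Cx3cl1, fractalkine, a membrane-bound chemokine, stood at 8.03, 2.61 and 18.4 and at 109, 131 and 120.3 (log2 fold change 3.81 ± 0.62, adjusted p = 0.00205). Its receptor Cx3cr1, found on monocytes and macrophages, stood at 42.4, 26.1 and 42.6 and at 151, 267 and 217 (log2 fold change 2.48 ± 0.50, adjusted p = 0.0056), and was not called against a 2-fold change. Ligand and receptor were thus both higher, with no overlap of groups. Ccl2, the most abundant chemokine of the Siglec-F high libraries at 49619, 26154 and 31919.8, rose from 1151, 2277 and 1488 (log2 fold change 4.46 ± 0.36, adjusted p = 9.79e-05). Ccr2, the receptor of Ccl2, stood at 13.8, 13.03 and 29.2 and at 222, 86.5 and 129.6 (log2 fold change 2.89 ± 0.53), and its trend-removed value of 1.31 was not called.

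In the TNF and NF-kB list 7 of 47 tested genes rose and none fell with calls that held, and 4 of these were among the 10 tested inhibitors of the pathway. NF-kB factors wait in the cytoplasm bound to inhibitors and, once freed, induce inflammatory genes and those inhibitors alike. Vcam1, an adhesion molecule for leukocytes, stood at 28.7, 44.3 and 47.6 in the naive libraries and at 949, 512 and 490.4 in the Siglec-F high libraries (log2 fold change 3.95 ± 0.40, adjusted p = 0.00028). Tnfaip3 encodes A20, a deubiquitinase that ends NF-kB signalling, and stood at 81.4, 104 and 67.7 and at 1306, 631 and 676 (log2 fold change 3.29 ± 0.34, adjusted p = 0.00028). An NF-kB form, GGGNNTTCC on either strand, lies in a RefSeq promoter (250 bases before to 50 after a start site) of 11 of the 39 TNF and NF-kB genes in the promoter table. A gene was counted when any of its promoters had the form. This was so for 6.58% of the 27025 genes in that table and for 8.63% of the tested ones. Of the 5 listed genes with a promoter in the table and a call that held, 1 has the form. A wider form, GGGNNNTCC, includes it and was found for 17 of the 39, for 19.8% of all genes in the table and for 26.4% of the tested ones. The stretch of the 100 bases before the start site of Tnfaip3 (chr10:19015411-19015510, minus strand, GRCm38.p6) is shown with its match in capitals, in reverse complement:
Tnfaip3: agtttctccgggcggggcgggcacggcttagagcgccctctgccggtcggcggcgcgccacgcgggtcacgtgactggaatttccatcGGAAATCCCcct
A match describes letters and no binding was measured.

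Immediate early genes, which are transcribed within minutes of a stimulus, rose in 12 of 32 tested cases and fell in 2 with calls that held. The list's median of 0.99 was 2.03 as a trend-removed value, and the number called higher went from 15 to 25. Egr2, a zinc finger factor, stood at 29.8, 49.5 and 30.9 in the naive libraries and at 463, 307 and 275 in the Siglec-F high libraries (log2 fold change 3.21 ± 0.36, adjusted p = 0.000372). Zfp36, tristetraprolin, which promotes decay of cytokine mRNA, stood at 1186, 1771 and 1399 and at 8494, 6480.2 and 5459 (log2 fold change 2.22 ± 0.27, trend-removed 3.34). Btg2, an antiproliferative gene, stood at 400.2, 432 and 403 and at 2384, 1199 and 1265 (log2 fold change 1.90 ± 0.30, adjusted p = 0.0018) and was not called against a 2-fold change. Library 1 was the highest of the Siglec-F high libraries for each of these 3 genes. Dusp4, a phosphatase of MAP kinases, went the other way, from 248, 190.2 and 245 to 16.4, 63.8 and 38.4 (log2 fold change -2.68 ± 0.50, trend-removed -1.36).

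Genes of the response to interferon gamma, the cytokine of T and NK cells that arms macrophages, rose in 13 of 29 tested cases, and none fell, with calls that held. Gbp2, a guanylate-binding GTPase that attacks vacuoles of intracellular microbes, stood at 153, 75.5 and 71.0 in the naive libraries and at 789, 626 and 353 in the Siglec-F high libraries (log2 fold change 2.56 ± 0.42, adjusted p = 0.00207). Casp1, the inflammasome protease, stood at 14.9, 13.03 and 8.35 and at 96.5, 104 and 144 (log2 fold change 3.16 ± 0.43, adjusted p = 0.000853). Neither gene overlapped between groups. Of 46 tested genes of the type I interferon response 7 rose and 1 fell with calls that held. Of those that rose, 3 belong to the Ifi200 family of DNA-binding proteins. Ifi204 stood at 4.59, 15.6 and 8.35 and at 206, 162 and 135 (log2 fold change 4.12 ± 0.51, adjusted p = 0.000577), and Ifi203 at 6.88, 41.7 and 6.68 and at 392, 112 and 149 (log2 fold change 3.78 ± 0.69, adjusted p = 0.00359). Parp14, an ADP-ribosyltransferase, was low in both groups but apart, at 4.59, 5.21 and 7.52 and 66.9, 63.2 and 55.4 (log2 fold change 3.23 ± 0.51, adjusted p = 0.00177). The interferon-stimulated response element lies in a promoter of 22 of 37 type I interferon genes found in the promoter table. It lies in a promoter of 3.99% of all genes in that table and of 3.92% of the tested ones. Of the 5 genes of the list with a promoter and a call that held, 3 have the element. The STAT form TTCNNNGAA, on either strand, was found for 10 of 24 interferon gamma genes, 9.55% of all genes in the table and 8.22% of the tested ones. Of the 10 listed genes with a promoter and a call that held, 2 have this form. Of 39 tested antigen presentation genes 3 rose and none fell with calls that held, and the median of 0.17 was -0.26 without Siglec-F high library 2 and 1.22 as a trend-removed value, when 11 were called higher and not 5. B2m, the light chain of MHC class I, stood at 3097, 3290.2 and 2357 and at 23407, 10344 and 9442 (log2 fold change 2.19 ± 0.40, trend-removed 1.35), and was not called against a 2-fold change.

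Genes of macrophages and other leukocytes rose in part. In the list of 22 tested monocyte and interstitial macrophage genes 5 rose and none fell with calls that held, and the list took 0.393% to 0.412% of a naive library's values and 0.430% to 0.909% of a Siglec-F high library's. F13a1, coagulation factor XIII, a marker of tissue macrophages, stood at 45.9, 80.8 and 40.9 and at 932, 441 and 568 (log2 fold change 3.50 ± 0.43, adjusted p = 0.000567). Mrc1, the mannose receptor CD206, stood at 36.7, 102 and 72.7 in the naive libraries and at 1151, 316 and 387 in the Siglec-F high libraries (log2 fold change 2.99 ± 0.55, trend-removed 1.91). Library 1 was the highest for both, but its share of values in the list was the lowest of its group (0.430%, against 0.909% and 0.739% in libraries 2 and 3). Among 21 tested genes of Fc receptors and ITAM signalling the number called higher went from 4 to 9 with the trend removed, and 1 rise held. It was that of Fcgr2b, the inhibitory Fc receptor, at 224, 141 and 210.5 and 1424, 792 and 766 (log2 fold change 2.34 ± 0.45, adjusted p = 0.00474), and was not called against a 2-fold change. Msr1, a scavenger receptor, stood at 30.97, 154 and 53.5 and at 920.2, 389 and 494 (log2 fold change 3.12 ± 0.63, trend-removed 1.91), and was not called against a 2-fold change. Among 26 tested genes shared by leukocytes 5 rose and 1 fell with calls that held. The member that fell, Arhgdib, a gene of blood cells, stood at 1522, 1842 and 1451 and at 129, 373 and 386 (log2 fold change -2.58 ± 0.52, adjusted p = 0.00567), while Cd53, a leukocyte tetraspanin, stood at 867, 1089 and 1073 and at 7255, 3456 and 3696 (log2 fold change 2.17 ± 0.47, trend-removed 1.30). Neither was called against a 2-fold change. Of 14 tested markers of neutrophils 1 was called, as lower (Ly6g), and no call held. S100a8, the granulocyte calcium-binding protein, stood at 479, 576 and 855 and at 1597, 407 and 800.02. Of 30 listed complement genes 20 were tested, and 2 rose and 1 fell with calls that held. C2, a protease of the classical pathway, fell from 664, 570.5 and 647 to 70.2, 81.7 and 64.8 (log2 fold change -3.10 ± 0.34, adjusted p = 0.00033), whereas Masp1, a protease of the lectin pathway, stood at 2.29, 18.2 and 12.5 and at 59.2, 261 and 272 (log2 fold change 4.10 ± 0.80, adjusted p = 0.005).

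S100 proteins and annexins, which bind calcium, rose in 7 of 20 tested cases, and none fell, with calls that held. S100a4, known from fibroblasts and motile cells, stood at 185, 500.2 and 249.8 in the naive libraries and at 9851, 6648 and 7941 in the Siglec-F high libraries (log2 fold change 4.81 ± 0.39, adjusted p = 9.79e-05). S100a6, calcyclin, was an abundant gene, at 2624, 4884 and 3289 and 22212, 36992 and 35928 (log2 fold change 3.15 ± 0.34, adjusted p = 0.000306). Anxa1, an annexin that dampens inflammation, stood at 379.6, 531 and 402 and at 3848, 2176 and 2386 (log2 fold change 2.65 ± 0.33, adjusted p = 0.000617). All 3 were well apart, and the list's median of 0.67 was 1.53 as a trend-removed value, when 12 were called higher and not 7. Among 27 tested genes of prostaglandins and leukotrienes 5 rose and 1 fell with calls that held. Pla2g4a, the phospholipase that frees arachidonic acid, stood at 2.29, 31.3 and 37.6 and at 847, 373 and 408 (log2 fold change 4.98 ± 0.79, adjusted p = 0.00182). Pla2g7, which degrades platelet-activating factor, stood at 157, 232 and 134 and at 872, 969 and 1263 (log2 fold change 2.59 ± 0.29, adjusted p = 0.000366). Ptgds, a prostaglandin D2 synthase that pigment cells also make, was the member that fell (-8.61). In retinoid binding and metabolism 5 of 15 tested genes rose and none fell with calls that held. Rdh10, which makes retinal from retinol, stood at 22.9, 18.2 and 35.9 and at 174, 161 and 156 (log2 fold change 2.68 ± 0.41, adjusted p = 0.00151). Crabp2, which carries retinoic acid to its receptor, stood at 25.2, 62.5 and 25.1 and at 193, 1323 and 1177 (log2 fold change 4.26 ± 0.68, adjusted p = 0.00186), and here library 1 was the lowest. Cp, the copper ferroxidase ceruloplasmin, rose from 90.6, 159 and 125 to 3287, 1391 and 1733 (log2 fold change 4.02 ± 0.51, adjusted p = 0.000666).

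Integrins, the receptors of matrix and of other cells, rose in 6 of 23 tested cases, and none fell, with calls that held. Itga6, a laminin receptor chain, stood at 27.5, 31.3 and 70.2 in the naive libraries and at 424, 434 and 468 in the Siglec-F high libraries (log2 fold change 3.46 ± 0.37, adjusted p = 0.000313). Ncam1, a neural and NK cell adhesion molecule, stood at 35.5, 23.4 and 27.6 and at 272, 278 and 289.99 (log2 fold change 3.25 ± 0.37, adjusted p = 0.000393). The spread within each group was small beside the gap between them for both genes. In the whole list of integrins and adhesion molecules the number called lower went from 4 to 2 with the trend removed. Jam3, a junctional adhesion molecule, fell from 84.9, 119.8 and 95.2 to 2.19, 7.76 and 13.7 (log2 fold change -3.75 ± 0.72, adjusted p = 0.00461). In the list of coagulation and the plasminogen system 4 of 18 tested genes rose and none fell with calls that held. Plat, the tissue plasminogen activator, stood at 38.99, 52.1 and 30.1 and at 336, 177 and 176 (log2 fold change 2.44 ± 0.41, adjusted p = 0.00224). Platelet genes were the 2 held rises among 8 tested erythroid and platelet genes. Pf4, a chemokine of platelets and some macrophages, stood at 242, 250.1 and 286 and at 1235, 517 and 817 (log2 fold change 1.64 ± 0.36, adjusted p = 0.00911), and was not called against a 2-fold change, and Ppbp, a chemokine of platelets, at 57.3, 31.3 and 23.4 and at 705, 134 and 291 (log2 fold change 3.08 ± 0.57, adjusted p = 0.00381).

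**Figure D5:**
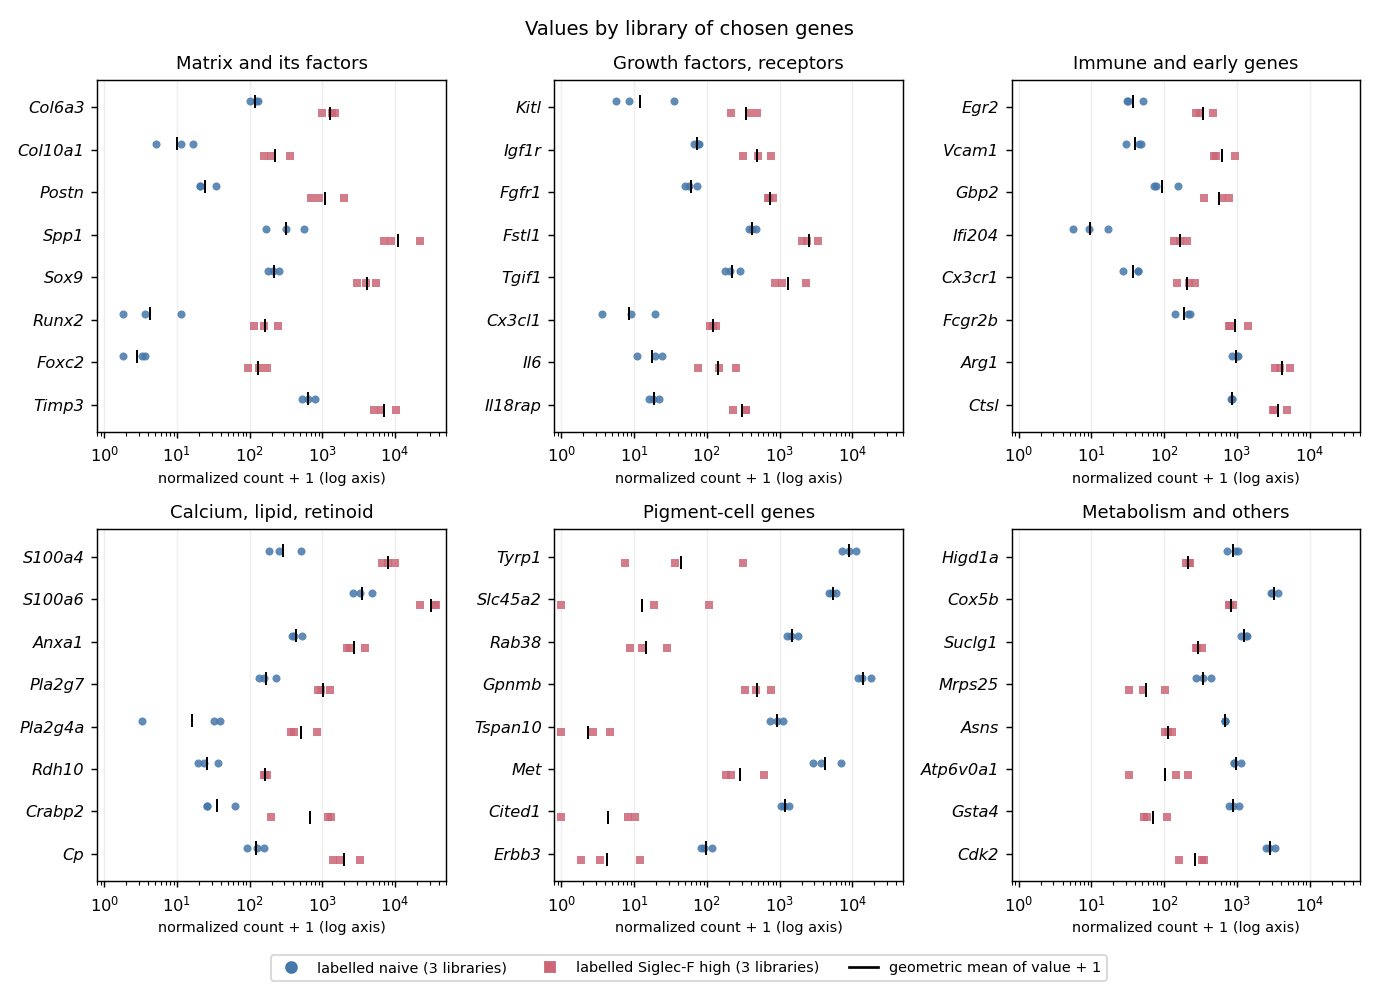
Normalized count + 1 (log axis) in each of the 3 libraries labelled naive (circles) and the 3 labelled Siglec-F high (squares) for 48 genes of 6 groups, with black ticks at the geometric mean. In the first 4 panels the squares lie to the right of the circles, and in the panels of pigment cell and metabolic genes to the left.

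Of the 57 lists, that of melanin synthesis and the melanosome had the lowest median. Melanin is made by tyrosinase and its relatives inside melanosomes, whose fibrils, membrane transporters and transport proteins are encoded by a gene set driven largely by the factor MITF. All 23 listed melanin and melanosome genes were tested, 17 fell and none rose with calls that held, and the list's median log2 fold change was -6.09. The list took 1.56% to 2.03% of a naive library's values and 0.0651% to 0.223% of a Siglec-F high library's. The 3 enzymes all fell. Tyr, the rate-limiting one (ENSMUSG00000004651.6; chromosome 7, 87424771 to 87493512, GRCm38), stood at 536, 448 and 707 in the naive libraries and at 6.58, 1.19 and 18.8 in the Siglec-F high libraries (log2 fold change -6.33 ± 0.79, adjusted p = 0.000578). Tyrp1, which acts after it, stood at 8952, 7112 and 11344 and at 6.58, 35.2 and 310.5 (log2 fold change -7.67 ± 1.04, adjusted p = 0.000862). Every naive library was above every Siglec-F high library by more than 10 times, and Siglec-F high library 3 was the highest of its group for both. Slc45a2, a melanosome transporter, stood at 6047, 4809 and 5331 and at 0, 17.9 and 106 (log2 fold change -8.73 ± 1.25, adjusted p = 0.0011), and Gpnmb, a melanosome glycoprotein that macrophages also make, at 17914, 13387 and 11891 and at 330.1, 770.2 and 477 (log2 fold change -4.84 ± 0.38, adjusted p = 9.79e-05). Rab38, a GTPase that carries the enzymes to the melanosome, stood at 1429, 1256 and 1789.99 and at 27.4, 7.76 and 11.9 (log2 fold change -6.64 ± 0.50, adjusted p = 9.71e-05).

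The E-box form CATGTG, which MITF is known to bind, was found on either strand in a RefSeq promoter of 7 of the 18 melanosome genes in the promoter table. It was found for 15.9% of the 27025 genes in that table and for 10.8% of the tested ones. Of the 12 listed genes with a promoter and a call that held, 6 have it. The 100 bases before the start site are shown for both enzymes just described, with the match in capitals, from chr7:87493513-87493612 (minus strand) for Tyr and chr4:80834113-80834212 (plus strand) for Tyrp1, both in GRCm38.p6:
Tyr: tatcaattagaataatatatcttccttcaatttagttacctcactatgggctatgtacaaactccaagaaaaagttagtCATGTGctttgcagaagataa
Tyrp1: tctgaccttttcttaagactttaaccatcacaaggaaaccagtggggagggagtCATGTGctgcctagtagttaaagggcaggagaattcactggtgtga
The match began 21 bases before the start site of Tyr and 46 before that of Tyrp1.

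Genes of pigment cells outside the melanosome list went both ways. Of 18 tested melanocyte and neural crest regulators 6 fell and 2 rose with calls that held, 8 were not called, and the median was -0.85 with a range from -9.71 to 5.82. Those that rose were Tfap2b and Kitl, described above. Mc1r, the receptor for melanocyte-stimulating hormone, and Sox10, a neural crest factor, had log2 fold changes of -7.97 and -9.71. Met, the receptor for hepatocyte growth factor, stood at 2849, 3749 and 6919 and at 215, 182 and 609 (log2 fold change -3.86 ± 0.49, adjusted p = 0.000626). Cited1, a transcriptional coregulator, stood at 1034, 1339 and 1148 in the naive libraries and at 0, 7.16 and 9.38 in the Siglec-F high libraries (log2 fold change -8.06 ± 0.77, adjusted p = 0.000217). Among the 20 largest falls were also 2 carbonic anhydrases. Car14, a membrane form, stood at 1795, 1425 and 1307 and at 5.48, 11.9 and 5.12 (log2 fold change -7.55 ± 0.46, adjusted p = 7.44e-05), and Car6, a secreted form, at 6047, 2368 and 5569.6 and at 4.39, 15.5 and 83.6 (log2 fold change -7.78 ± 0.83, adjusted p = 0.000309). Tspan10, a tetraspanin of retinal pigment epithelium, stood at 747, 1123 and 907 and at 0, 3.58 and 1.71 (log2 fold change -8.62 ± 0.70, adjusted p = 9.79e-05). Bfsp2, a filament protein of the lens, stood at 445, 664 and 507 and had 3 reads in the Siglec-F high libraries, a read ratio of 639 (95% interval from counting, 218 to 3101). Insc, an adaptor of spindle orientation, stood at 237, 284 and 182 and had 2 reads, a read ratio of 409 (113 to 3388). Among Hox genes, which mark position along the body, 16 of 39 were tested and 3 fell with calls that held. Their median of -0.99 was 1.01 when a mean of 20 was required and -0.13 as a trend-removed value. With the trend removed 3 and not 5 were called lower, and 2 and not 0 were called higher. Hoxa10 stood at 123, 83.4 and 129 and at 0, 6.56 and 6.82 (log2 fold change -4.83 ± 0.94, adjusted p = 0.00479).

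Most glycolytic enzymes fell between the naive and the Siglec-F high libraries. Glycolysis splits glucose into pyruvate in the cytosol, and its genes are induced in hypoxia by the factor HIF-1. Of 21 tested glycolytic genes 16 fell and none rose with calls that held, and their median was -2.47. Among 18 tested genes induced by hypoxia 4 fell and 1 rose with calls that held, and their median was 0.07. For both kinds together the median of -1.67 was -0.95 as a trend-removed value, and the number called lower went from 21 to 19. Ldha, lactate dehydrogenase A, which ends anaerobic glycolysis (ENSMUSG00000063229.15; chromosome 7, 46841475 to 46855627, GRCm38), stood at 15450.4, 19426 and 19277 in the naive libraries and at 4295, 4362 and 4055 in the Siglec-F high libraries (log2 fold change -2.08 ± 0.26, trend-removed -1.25). Pkm, pyruvate kinase, was among the 10 most abundant genes of the naive libraries, at 62559, 68879.6 and 56280 and 4777, 20846 and 14459 (log2 fold change -2.47 ± 0.48, trend-removed -0.95), and was not called against a 2-fold change. Car9, a carbonic anhydrase of hypoxic cells (ENSMUSG00000028463.14; chromosome 4, 43506966 to 43513729, GRCm38), stood at 2116, 2071 and 2173 and at 189, 201 and 219 (log2 fold change -3.38 ± 0.26, trend-removed -2.19). The 3 libraries of a group lay close together for Ldha and Car9, while Pkm was lowest in Siglec-F high library 1. Egln3, a prolyl hydroxylase that marks HIF for destruction and is itself induced in hypoxia, was the member that rose, from 73.4, 41.7 and 40.9 to 162, 195 and 282 (log2 fold change 2.03 ± 0.38, adjusted p = 0.00423), and it was not called against a 2-fold change.

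The core of the hypoxia response element, ACGTG on either strand, lies in a RefSeq promoter of 24 of 35 glycolysis and hypoxia genes in the promoter table. It was found for 21.8% of all genes in that table and for 28.9% of the tested ones. Of the 20 listed genes with a promoter and a call that held, 14 have it. The 100 bases before the start site are shown for Ldha (chr7:46845704-46845803) and Car9 (chr4:43506926-43507025), both on the plus strand of GRCm38.p6, with matches in capitals, where CACGT is the reverse complement of the form and CACGTG holds it on both strands:
Ldha: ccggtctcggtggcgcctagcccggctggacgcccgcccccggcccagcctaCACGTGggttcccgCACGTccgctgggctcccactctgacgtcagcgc
Car9: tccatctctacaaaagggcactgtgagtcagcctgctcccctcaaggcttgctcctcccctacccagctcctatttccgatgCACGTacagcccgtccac
Both genes fell, so the form was present in promoters of members that fell, and no binding was measured.

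Many nuclear genes of mitochondria fell, and none of the 13 protein-coding genes of the mitochondrial genome passed the test. The respiratory chain is built from subunits of both genomes. Of 75 tested nuclear subunits 31 fell and none rose with calls that held (median -1.37, trend-removed -0.85, with 53 called lower before the removal and 34 after), in complex I for 17 of 37, in complexes II to IV for 8 of 24 and in ATP synthase for 6 of 14. Cox5b, a subunit of cytochrome c oxidase, stood at 3063, 3704 and 2961 in the naive libraries and at 815, 875 and 779.5 in the Siglec-F high libraries (log2 fold change -1.97 ± 0.26, adjusted p = 0.000835). Ndufa4, a small subunit of the chain, stood at 2457, 1912 and 2950.2 and at 695, 297 and 453 (log2 fold change -2.40 ± 0.34, adjusted p = 0.000986). These 13 mitochondrially encoded protein-coding genes gave 0 calls by limma (0 at an unadjusted p under 0.05) and 0 by edgeR and DESeq2. Their median of 0.20 was -0.25 without Siglec-F high library 1 and -0.91 as a trend-removed value, 3 of them then being called lower. mt-Atp6 stood at 193754, 196396 and 79449.7 and at 351418, 139563 and 201668, and the groups overlapped. Of 24 tested genes of the tricarboxylic acid cycle 9 fell and none rose with calls that held. Suclg1, a subunit of succinyl-CoA ligase, stood at 1142, 1318 and 1358 and at 282, 329 and 272 (log2 fold change -2.11 ± 0.25, adjusted p = 0.0005). Of 76 tested proteins of the mitochondrial ribosome 19 fell and none rose with calls that held, and the number called lower went from 51 to 31 with the trend removed. Mrps25 stood at 338, 438 and 276 and at 31.8, 101 and 50.3 (log2 fold change -2.63 ± 0.46, adjusted p = 0.00304). For cytosolic ribosomal proteins 3 of 76 fell with calls that held, and their median of -0.52 turned to 0.17 with the trend removed, when 3 were called higher and the number called lower went from 17 to 0.

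Genes of the integrated stress response, in which the factor ATF4 induces amino acid synthesis and transfer RNA charging, fell in 9 of 19 tested cases, and none rose, with calls that held. Asns, asparagine synthetase, stood at 686, 679.9 and 679.9 in the naive libraries and at 103, 126 and 113 in the Siglec-F high libraries (log2 fold change -2.58 ± 0.28, adjusted p = 0.000326). Mthfd2, a mitochondrial enzyme of folate metabolism, stood at 467, 388 and 520.4 and at 52.6, 82.9 and 58.9 (log2 fold change -2.82 ± 0.33, adjusted p = 0.000468). Gars, glycyl-tRNA synthetase, stood at 2955, 2589 and 2512 and at 375, 737 and 673 (log2 fold change -2.23 ± 0.30, adjusted p = 0.000811). The groups were apart for all 3, with naive libraries within a narrow range. For the whole list of unfolded protein and stress genes, the median of -1.28 was -0.57 with the trend removed, and the number called lower went from 19 to 11. Among chaperones of the heat shock list 4 of 26 fell and none rose with calls that held, and the number called lower went from 5 to 3 with the trend removed. Cct7, a subunit of the cytosolic chaperonin, stood at 3196, 3876 and 3114 and at 115, 836 and 657 (log2 fold change -3.08 ± 0.60, adjusted p = 0.00476).

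Lysosomal genes moved both ways, with 11 of 44 tested falling and 3 rising with calls that held. The trend-removed median was -0.38 against -0.82, and the number called lower went from 17 to 11. Among those that fell were subunits of the proton pump that acidifies lysosomes and melanosomes. Atp6v0a1 stood at 924, 1133 and 911 in the naive libraries and at 31.8, 215 and 146 in the Siglec-F high libraries (log2 fold change -3.28 ± 0.58, adjusted p = 0.00321), and Atp6v1e1 at 2411, 1805 and 1593 and at 421, 514 and 309.6 (log2 fold change -2.23 ± 0.30, adjusted p = 0.000848). Ctsl, the protease cathepsin L, rose from 836, 847 and 866 to 4899, 3103 and 3245 (log2 fold change 2.11 ± 0.25, trend-removed 1.05). Pump subunits and protease thus differed in direction. In sterol and fatty acid synthesis 5 of 30 tested genes fell and none rose with calls that held (median -0.92, trend-removed -0.55), and the number called lower went from 13 to 7 with the trend removed. Scd2, a fatty acid desaturase, stood at 3357, 2488 and 3001 and at 1067, 823 and 777 (log2 fold change -1.73 ± 0.28, adjusted p = 0.00213), and was not called against a 2-fold change. Among glutathione, thioredoxin and redox genes 5 of 37 fell and 2 rose with calls that held, and the median of the whole list with iron genes turned from -0.37 to 0.34 with the trend removed. Gsta4, a glutathione transferase for lipid peroxidation products, stood at 1056, 870.1 and 772 and at 51.5, 57.3 and 108 (log2 fold change -3.68 ± 0.43, adjusted p = 0.000433).

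Genes of the cell cycle did not move as one. Of 55 tested 7 fell and 4 rose with calls that held, and the median of -0.66 was -0.24 with the trend removed, when 1 and not 6 were called higher and 9 and not 17 lower. Cdk2, a kinase of S phase, fell from 3348, 2767 and 2528 in the naive libraries to 161, 326 and 357 in the Siglec-F high libraries (log2 fold change -3.42 ± 0.34, adjusted p = 0.000264). Its gene shares 837 bases with Pmel on the opposite strand, and reads of both cannot be told apart there unless counting used the strand. Mcm2, part of the replicative helicase, fell from 1053, 1435 and 1067 to 168, 268 and 258 (log2 fold change -2.37 ± 0.29, adjusted p = 0.000531). Ccnd2, cyclin D2, fell from 1338, 1329 and 1189 to 319, 359.8 and 371 (log2 fold change -1.87 ± 0.25, adjusted p = 0.00077). Against these, the mitotic genes Mki67 and Top2a had log2 fold changes of 1.67 and 1.20, which were 0.73 and 0.15 as trend-removed values and were no longer called. Neither was called against a 2-fold change. Among p53 targets and cell cycle inhibitors 5 of 24 rose and none fell with calls that held, and with the trend removed the number called higher went from 6 to 10. Mdm2, the ligase that degrades p53, stood at 213, 245 and 317 and at 1119, 812 and 774 (log2 fold change 1.80 ± 0.28, adjusted p = 0.00177), and was not called against a 2-fold change. Eda2r, a receptor for ectodysplasin A2 that p53 induces, stood at 5.73, 0 and 0.84 and at 119.5, 41.8 and 63.97 (log2 fold change 4.91 ± 0.84, adjusted p = 0.00269).

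The 3 libraries labelled Siglec-F int, from the same kind of tumour-injected mice, shared the fit. Between Siglec-F high and int, limma called 0 genes (smallest adjusted p = 0.811, 572 genes at an unadjusted p under 0.05), so none of the differences described above was shown to be particular to the high group.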

How the data were processed

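RNA of 9 pooled libraries was sequenced (RNA integrity number above 6.3), of which 6 were compared. Per the submitters' processing notes, TopHat2 2.1.0, HTSeq and DESeq2 1.10.0 were used with GRCm38. The deposited signal (normalized counts) came from the authors' division of gene counts by DESeq2 size factors. Whole reads, within 0.05 read up to 2000 reads, were recovered from the smallest step of each column and set the depth. Library totals of 2205949 to 7171066 reads limit precision for genes with few reads. Whether molecular identifiers were counted is not given in the sources used here, and intervals and floors hold only the error of counting.

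Of 54670 entries, 63 with a date as gene name (0.219% of all values), 116 exact duplicates and 42 repeats of a name and its values were left out. Identifiers of 99.9% of the genes matched GENCODE M21. limma 3.58.1 in R 4.3.3 was fitted to log2(value + 1) in all 9 libraries with a variance trend, two-sided, with Benjamini-Hochberg adjustment over 13832 genes at 0.05. The procedure was tested on simulated counts without an outlying library or a trend with GC content or length. That test therefore says nothing of their effect here. Chi-square per degree of freedom within groups was 25.7 to 142.5, so no library repeated another.

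The members of the 57 gene lists and the comparison were chosen with earlier results of these data known. Genes were named by rule from calls that held where the higher group averaged 50 or more: the 20 largest rises and falls, up to 4 per list and direction, those with the smallest SE, the most abundant genes, 12 defining markers, and the 2 highest members of lists with no such call. Genes with at most 3 reads in a group have a read ratio with an exact 95% interval from scipy 1.17.1, or a bound at 3 reads; list medians did not change with genes lacking reads at that bound. Promoters came from RefSeq (GRCm38.p6). Alternatives were other pseudocounts, filters, scalings and variance priors, a replicate block, removal of GC and length trends (span 0.3), a 2-fold minimum, each library left out, and edgeR 4.0.16 and DESeq2 1.42.0 on recovered reads. Figures were drawn with matplotlib 3.10.9.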

Additional observations from a re-analysis of the deposited data

How the results depend on the processing

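The comparison called 4284 genes, 2000 higher and 2284 lower. A fit of only the 6 libraries called 2500 (1199 higher, 1301 lower), and the test against a 2-fold change 904 (472 higher, 432 lower). edgeR called 1354 genes lower. Leaving out 1 library at a time gave 2792 to 5130 calls, 1419 to 2184 of them higher and 1338 to 2946 lower. A fit with the replicate number as a block called 4335 genes (1971 higher, 2364 lower). Same-numbered libraries deviated from their group means with correlations of -0.03 to 0.01, and not every library correlated best with its own number, so the numbers were not taken to pair the pools. The other settings gave counts within 1.5 times of those reported. Over 262 named genes and 21 settings, 5338 values kept direction and side of the threshold, 104 lost a call, 12 gained one and 3 values that had been called changed sign. Those 3, all with GC and length trends removed, were Gnas (0.26), Psmc3 (0.13) and Rpl36 (0.38), and the cause was not tested beyond that removal. Another 41 values, of 16 genes that were called neither before nor under that setting, also changed sign, among them Gata2 (-0.54 to 0.83), Lcn2 (-0.20 to 1.01) and mt-Atp6 (0.57 to -0.72) with the trends removed. Read totals limit the precision of genes with few reads, and no detection limit was computed.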
